A study of Mus musculus with 51 samples.

Results

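The pyruvate dehydrogenase complex and the kinases that switch it off were followed through the ventral prostate of mice carrying an AKT1 transgene, with and without RAD001 (everolimus, an inhibitor of the protein kinase mTOR). The 8 genes were Pdk1, Pdk2, Pdk3 and Pdk4, which encode the kinases, and Pdha1, Pdhb, Dlat and Dld, which encode subunits of the complex. Every probe set whose single gene symbol was one of these 8 was taken. This gave 13 of the 22626 probe sets listed for every array and 8 of the 12393 single-symbol genes. The 6 d and 9 d arrays were deposited under a different Affymetrix platform from the rest. The series comprised 51 Affymetrix arrays of total RNA, and its design set out to separate early markers of drug exposure from markers of response. All animals were FVB mice of 8 to 10 weeks on a standard diet. RAD001-treated transgenic mice were profiled at 12 h (5 arrays), 48 h (4), 6 d (3), 9 d (4) and 15 d (6). Placebo-treated transgenic mice were profiled at 12 h (4 arrays), 48 h (5), 6 d (1), 9 d (1) and 15 d (7). Placebo-treated wild-type mice were profiled at 12 h (4 arrays), 48 h (4) and 15 d (3), and no wild type accompanied the 6 d and 9 d arrays or the drug. The labels used here name neither the dose of RAD001 nor the promoter and cell type that drive the transgene, and each array is labelled a biological replicate.

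The pyruvate dehydrogenase complex sits in the mitochondrial matrix and turns pyruvate into acetyl-CoA, which links glycolysis to the citrate cycle. Pdha1 and Pdhb encode the alpha and beta chains of its E1 component, which takes the carboxyl group off pyruvate. Dlat encodes the E2 core that passes the acetyl group to coenzyme A, and Dld encodes E3, a flavoprotein that reoxidises the lipoyl groups and that other 2-oxoacid dehydrogenases also use. The 4 kinases phosphorylate the E1 alpha chain and so lower the flux of pyruvate into the cycle. PDK1, in mouse and human cells, and PDK3, in human cells, are known targets of the hypoxia-inducible factor HIF-1, PDK2 is broadly expressed, and PDK4 is induced by fasting through FOXO and PPAR factors. The prostate epithelium is known for making and secreting citrate, for which the complex supplies acetyl-CoA.

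Promoters of 3 kinase genes are shown because Pdk1 and Pdk3 carried the largest differences between the groups and Pdk2 had no call in any comparison. Each window holds 250 bases before and 50 bases from the annotated start, from RefSeq on GRCm38.p6, written 5′ to 3′ on the strand of the gene. All 8 genes matched, with 10 windows, and for Pdk2 the window that held the motif is printed. Capitals mark ACGTG, a form of the core of a hypoxia response element, with one more C where its reverse complement CACGT overlaps it.
Pdk1, chr2:71872974-71873273, plus strand: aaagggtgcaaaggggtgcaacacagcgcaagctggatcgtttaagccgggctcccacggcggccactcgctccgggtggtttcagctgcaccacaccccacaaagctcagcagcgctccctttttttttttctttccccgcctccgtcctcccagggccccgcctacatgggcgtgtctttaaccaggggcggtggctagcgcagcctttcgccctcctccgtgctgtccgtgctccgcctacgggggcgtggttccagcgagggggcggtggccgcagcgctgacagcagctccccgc
Pdk2, chr11:95041322-95041621, minus strand: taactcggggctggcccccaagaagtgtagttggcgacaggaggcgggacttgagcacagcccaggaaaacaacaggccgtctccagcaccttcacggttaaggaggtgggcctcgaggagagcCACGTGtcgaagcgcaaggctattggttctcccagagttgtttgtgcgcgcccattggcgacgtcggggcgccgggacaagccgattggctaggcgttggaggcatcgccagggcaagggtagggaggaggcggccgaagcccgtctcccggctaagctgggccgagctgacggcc
Pdk3, chrX:93832101-93832400, minus strand: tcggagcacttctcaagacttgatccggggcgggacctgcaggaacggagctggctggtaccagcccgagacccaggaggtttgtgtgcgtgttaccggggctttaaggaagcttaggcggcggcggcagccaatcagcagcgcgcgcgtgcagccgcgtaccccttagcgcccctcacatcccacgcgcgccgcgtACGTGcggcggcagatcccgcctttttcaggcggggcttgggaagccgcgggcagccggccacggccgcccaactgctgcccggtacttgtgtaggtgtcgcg
ACGTG was found on either strand in 3 of the 10 windows (Pdk2, Pdk3 and Pdhb), and in 19.6% of all 32851 windows of the same length. In Pdk3 it began 53 bases before the start. In the printed Pdk2 window it read on both strands as a palindrome, and the printed Pdk1 window held no ACGTG. The form GCGTG was neither searched nor marked, and its letters occur in the printed Pdk1 and Pdk3 windows. The FOXO-like motif TTGTTTAC was in 0 of the 10 windows and in 1.23% of all windows, and the nuclear receptor core motif AGGTCA was in 0 of 10 and in 16.3%, both strands searched. A match describes these letters in this window, and no match says nothing of the rest of the locus.

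The arrays of the series were close in overall brightness, with medians of 91.6 to 109.3 for the 42 arrays at 12 h, 48 h and 15 d and of 98.1 to 110.4 for the 9 arrays at 6 d and 9 d. Of the Akt1 probe sets, 1425711_a_at was higher in placebo-treated transgenic than in wild-type prostates by 0.88 ± 0.23 on the log2 scale (adjusted p = 0.00289), and 1416657_at differed by 0.17 ± 0.08 (adjusted p = 0.0936). Whether these probes read the transgene is not given in the labels. Among all 51 arrays, 4 listed over 500 probe sets at exactly 0, against at most 388 on any other. These were replicates 8 and 9 of the placebo-treated transgenic group at 15 d, replicate 1 of the RAD001 group at 6 d and replicate 3 of the RAD001 group at 9 d. At 15 d the arrays also fell into 2 sets along the first principal component of the 13574 probe sets kept for testing, which held 26.5% of the variance. Set B had 4 of the 6 RAD001 arrays, 5 of the 7 placebo-treated transgenic arrays and none of the 3 wild-type arrays, and set A had the rest. The labels give no batch for this split, so results at 15 d are also given within sets and without the many-zero arrays.

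Averaged over time, Pdk1 had the largest genotype difference among the tested members, although at 12 h Pdk3 differed more. The kinase it encodes is found in heart and in many tumour cells and is the only isoform known to phosphorylate all the regulatory serines of E1 alpha. At 12 h its probe set 1423747_a_at read 115, 139, 137 and 160 in placebo-treated transgenic prostates, against 68.1, 62.2, 56.3 and 29.8 in wild-type prostates. At 48 h it read 180, 188, 133, 148 and 182 in placebo-treated transgenic prostates, against 56.0, 46.9, 37.3 and 61.4 in wild-type prostates. The 15 d arrays of placebo-treated transgenic prostates had a lowest value of 143.5, a median of 231 and a highest of 327, against 63.1, 76.3 and 66.9 in wild-type prostates. Every placebo-treated transgenic array was thus above every wild-type array of its time point. Averaged over the 3 times, the level was 3.02-fold higher in placebo-treated transgenic prostates, a difference of 1.60 ± 0.14 (log2 ± SE, limma, adjusted p = 3.27e-11). By time, limma gave 2.65-fold at 12 h (adjusted p = 6.01e-05), 3.33-fold at 48 h (adjusted p = 1.42e-06) and 3.13-fold at 15 d (adjusted p = 1.71e-05). The size of the difference did not vary detectably with time (interaction, adjusted p = 0.715). In all, 4 of the 11 member probe sets that passed the filter on dim signals were called for genotype averaged over time, and 33.5% of all probe sets tested were called there. The corresponding counts were 2 of 11 at 12 h against 21% of all probe sets, 3 of 11 at 48 h against 25.6%, and 3 of 11 at 15 d against 21%. Groups that did not overlap, with transgenic arrays all higher, made up 15.5% of all probe sets at 12 h, 13.5% at 48 h and 7.02% at 15 d.

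RAD001-treated transgenic prostates had less Pdk1 signal than placebo-treated ones. At 12 h probe set 1423747_a_at read 92, 99.1, 109, 113 and 60.5 under RAD001, against 115, 139, 137 and 160 under placebo. At 48 h it read 103, 85.6, 93.2 and 75.8 under RAD001, against 180, 188, 133, 148 and 182 under placebo. At 15 d the RAD001 arrays had a lowest value of 63.9, a median of 111 and a highest of 129, against 143.5, 231 and 327 under placebo. All RAD001 arrays were below all placebo arrays of the same time point, a pattern shared by 3.9% of all probe sets at 12 h, 3.04% at 48 h and 1.27% at 15 d. Pdk1 fell by 0.89 ± 0.23 on the log2 scale at 48 h (1.86-fold lower, limma, adjusted p = 0.0228). At 15 d it fell by 1.13 ± 0.19 (2.18-fold lower, limma, adjusted p = 0.000243). The 12 h difference of -0.56 ± 0.23 did not pass after adjustment over all probe sets (adjusted p = 0.278). Differences between the RAD001 effects at the 3 times were not detected (interaction, adjusted p = 0.593). RAD001 gave calls for 0 of 11 member probe sets at 12 h (1 at an unadjusted p under 0.05), 2 of 11 at 48 h and 1 of 11 at 15 d. Over all probe sets tested the called shares were 1.47% at 12 h, 3.45% at 48 h and 5.53% at 15 d. The placebo-treated transgenic arrays serve both the genotype and the drug comparison, so the opposite signs of the 2 differences are not independent of each other. The 48 h call was lost when certain arrays were left out, with little change in size. The difference was -0.84 without placebo-treated transgenic replicate 2 (adjusted p = 0.0501), -0.86 without replicate 5 (adjusted p = 0.0519) and -0.82 without RAD001 replicate 5 (adjusted p = 0.0899). The 15 d call was kept in 13 of 13 fits that each left out 1 array.

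**Figure D1:**
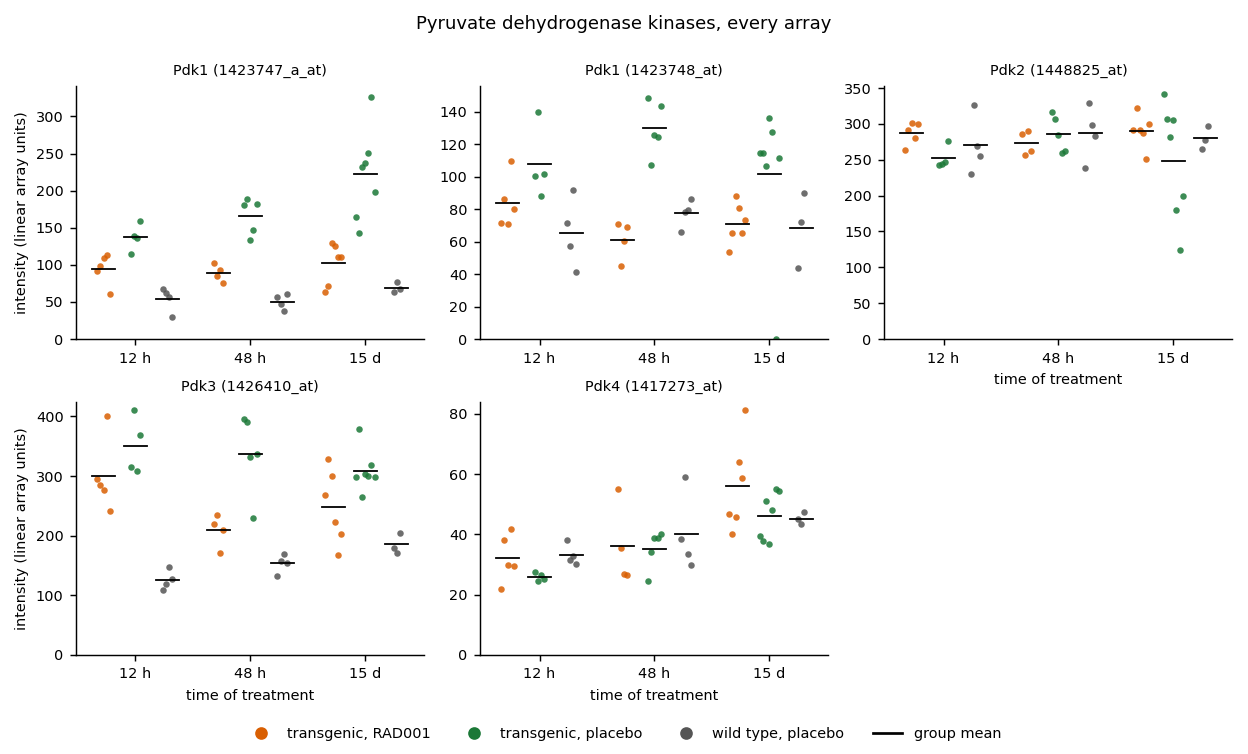
Intensity in linear array units of each kinase probe set on every array of 12 h, 48 h and 15 d, with RAD001-treated transgenic, placebo-treated transgenic and wild-type arrays from left to right at each time and a line at the group mean. RAD001 and placebo points of transgenic prostates do not overlap for Pdk1 1423747_a_at at any time, and 1 placebo point of Pdk1 1423748_at lies at 0.

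The second Pdk1 probe set, 1423748_at, was dimmer and noisier. At 48 h it read 70.8, 44.7, 60.5 and 69.2 under RAD001 and 149, 107, 126, 124 and 143 in placebo-treated transgenic prostates, with 65.9, 78.2, 79.5 and 86.1 in wild-type prostates. The placebo-treated transgenic arrays were above both other groups with no overlap, yet neither difference passed (RAD001, -1.10 ± 0.36, adjusted p = 0.078; genotype, adjusted p = 0.125). For placebo-treated transgenic prostates the 15 d group had a median of 115 and a highest value of 136, and its replicate 9 was listed at 0 with the next lowest at 106. Averaged over the times, the genotype difference was 0.64 ± 0.21 (1.56-fold, adjusted p = 0.0165), and it no longer passed without wild-type 15 d replicate 1 (adjusted p = 0.0577). Without the many-zero arrays this probe set was called for genotype at 12 h (adjusted p = 0.00635), 48 h (adjusted p = 0.00412) and 15 d (adjusted p = 0.00924). In the same fit RAD001 gave -1.10 at 48 h (adjusted p = 0.000762) and -0.73 at 15 d (adjusted p = 0.0135). Over the 42 arrays the log2 values of the 2 Pdk1 probe sets had a Pearson correlation of 0.328, and of 0.715 without the many-zero arrays, which is a description across arrays that share groups.

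Within the array sets of 15 d, the drug difference of Pdk1 1423747_a_at had the same sign and a similar size. In set A the RAD001 arrays read 63.9 and 71.0, against 165 and 143 for the placebo-treated transgenic arrays, a difference in mean log2 of -1.19. In set B the geometric means were 118.9 under RAD001 and 245.4 under placebo, a difference of -1.05, and the groups did not overlap in either set. The level itself differed between sets, since both transgenic groups were brighter in set B. With the set as a block, the RAD001 effect was -1.09 (adjusted p = 1.72e-05) and the genotype effect at 15 d was 1.12 (adjusted p = 0.00267) in place of 1.65. Without set B the drug effect stayed at -1.19 on 2 arrays against 2 and did not pass (adjusted p = 0.0719). In set A the 2 RAD001 arrays overlapped the 3 wild-type arrays of 63.1, 76.3 and 66.9, with a mean difference of -0.03.

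**Figure D2:**
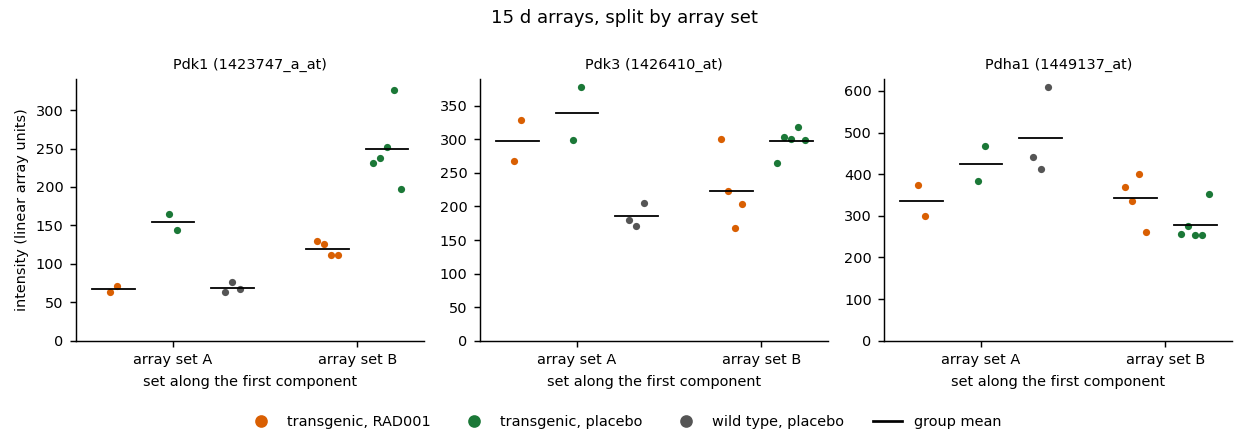
Intensity in linear array units of Pdk1, Pdk3 and Pdha1 probe sets on the 16 arrays of 15 d, split into the 2 sets seen along the first principal component, with a line at each group mean. RAD001 arrays lie below placebo-treated transgenic arrays for Pdk1 in both sets, while Pdha1 1449137_at has RAD001 lower in set A and higher in set B.

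Pdk3, the kinase gene known as a hypoxia target in human cells, was also higher with the transgene. Probe set 1426410_at read 316, 410, 309 and 369 at 12 h in placebo-treated transgenic prostates, against 109, 119, 148 and 127 in wild-type prostates. At 48 h the values were 396, 390, 332, 229 and 336 in placebo-treated transgenic prostates and 132, 158, 169 and 154 in wild-type prostates. Transgenic placebo values at 15 d (lowest, median and highest) were 264, 301 and 379, against 180, 171 and 205 in wild-type prostates. The genotypes did not overlap at any time. Averaged over the times Pdk3 rose 2.16-fold with the transgene (log2 1.11 ± 0.10, limma, adjusted p = 3.89e-11). The fold was 2.79 at 12 h (adjusted p = 1e-07), 2.17 at 48 h (adjusted p = 5.18e-06) and 1.66 at 15 d (adjusted p = 0.00233), and the test that these 3 differ gave an adjusted p of 0.0583. Wild-type geometric means were 125.1 at 12 h, 152.7 at 48 h and 184.7 at 15 d, and the test of time in wild type did not pass (adjusted p = 0.0589). Genotype effects at 15 d were 0.86 within set A and 0.95 with the set as a block (adjusted p = 0.00191).

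Under RAD001 the Pdk3 difference passed only at 48 h among the times tested. At 12 h the 5 RAD001 arrays read 295, 286, 276, 400 and 242, which overlapped the placebo arrays of 316, 410, 309 and 369 (-0.24, adjusted p = 0.636). At 48 h the RAD001 arrays read 219, 234, 171 and 210, against 396, 390, 332, 229 and 336 under placebo. One placebo array, at 229, lay below the highest RAD001 array, so the groups overlapped. Pdk3 fell by 0.67 ± 0.16 at 48 h (1.60-fold lower, limma, adjusted p = 0.0143). That call was lost without RAD001 replicate 4 (adjusted p = 0.0681) and in a fit of the compared groups alone (adjusted p = 0.0713). At 15 d the lowest, median and highest values were 167, 245 and 328 under RAD001 against 264, 301 and 379 under placebo, and the difference of -0.35 ± 0.13 did not pass (adjusted p = 0.134). It was -0.18 within set A and -0.44 within set B. Whether the drug effect differs between times was tested, and no difference was found (adjusted p = 0.56).

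Pdk2, a kinase isoform of most tissues, had no call in any comparison. The placebo-treated transgenic arrays read 242, 244, 246 and 277 at 12 h, where RAD001 arrays read 264, 292, 302, 280 and 299 and wild-type arrays 230, 326, 270 and 255. The averaged genotype difference was -0.11 with a 95% interval of -0.32 to 0.09 (adjusted p = 0.423). At 15 d the RAD001 arrays ran over 251, 292 and 322 (lowest, median, highest), against 124, 281 and 342 in placebo-treated transgenic prostates and 265, 278 and 296 in wild-type prostates. The 3 lowest placebo values, 180, 124 and 200, were those of replicates 8, 9 and 10, of which 8 and 9 are many-zero arrays. The RAD001 difference at 15 d was 0.30 ± 0.14 (adjusted p = 0.24), and 0.04 without the many-zero arrays (adjusted p = 0.949).

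Pdk4 was dim throughout, at 22.0 to 81.1 over the 42 arrays, and stayed under the filter in both tables. It was therefore not tested, and its levels are given as a description. Geometric means were lowest in placebo-treated transgenic prostates at 12 h (25.91) and highest in RAD001-treated prostates at 15 d (54.5). Among the 15 d arrays the lowest, median and highest values were 40, 52.9 and 81.1 under RAD001, 36.9, 48.2 and 55.0 in placebo-treated transgenic prostates, and 45.0, 43.4 and 47.3 were the wild-type values. At 12 h the placebo-treated transgenic arrays, at 27.5, 24.4, 26.6 and 25.2, were all below the wild-type arrays, at 38.3, 31.3, 32.7 and 30.3. The share of all probe sets with this order at 12 h is not given here. In the other comparisons at 12 h, 48 h and 15 d the groups overlapped.

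For each E1 gene 1 probe set varied little. Pdha1 probe set 1418560_at read between 857 and 1494 over the 42 arrays and Pdhb 1416090_at between 567 and 851. For Pdhb 1416090_at the averaged genotype difference had a 95% interval of -0.10 to 0.10 (adjusted p = 0.976). Its RAD001 differences were -0.04 at 12 h, -0.13 at 48 h and -0.08 at 15 d, with adjusted p-values of 0.97, 0.471 and 0.57. The other Pdhb probe set, 1448214_at, ran from 26.2 to 87.9 and was under the filter. For Pdha1 1418560_at the averaged genotype difference was -0.11 (95% interval -0.24 to 0.01, adjusted p = 0.159), and at 15 d it was -0.28 (adjusted p = 0.0519).

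Pdha1 probe set 1449137_at was called for genotype at 15 d, where the placebo-treated transgenic arrays had a lowest value of 254, a median of 276 and a highest of 467, against 441, 412 and 610 in wild-type prostates. These groups overlapped. The difference was -0.62 ± 0.19 (1.54-fold lower in transgenic prostates, limma, adjusted p = 0.0182), beside 0.19 at 12 h and 0.10 at 48 h, and genotype interacted with time (adjusted p = 0.0424). The interaction was called in 5 of 12 alternative fits and in 10 of 27 fits that left out 1 array, with adjusted p-values up to 0.618 and 0.195. The 5 placebo-treated transgenic arrays of set B read 254 to 354, while the 2 of set A read 383 and 467. Within set A the difference was -0.19, and with the set as a block it was -0.40 (adjusted p = 0.357). The call was also lost without wild-type replicate 3 (adjusted p = 0.168) and without the many-zero arrays (adjusted p = 0.0769). At 48 h under RAD001 the probe set read 239, 358, 354 and 205, against 248, 474, 402, 490 and 449 under placebo, and the difference of -0.52 ± 0.18 did not pass (adjusted p = 0.113). Without placebo-treated transgenic replicate 1, the array at 248, it was -0.69 (adjusted p = 0.0156). The 2 Pdha1 probe sets thus gave different calls at 15 d for one gene.

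**Figure D3:**
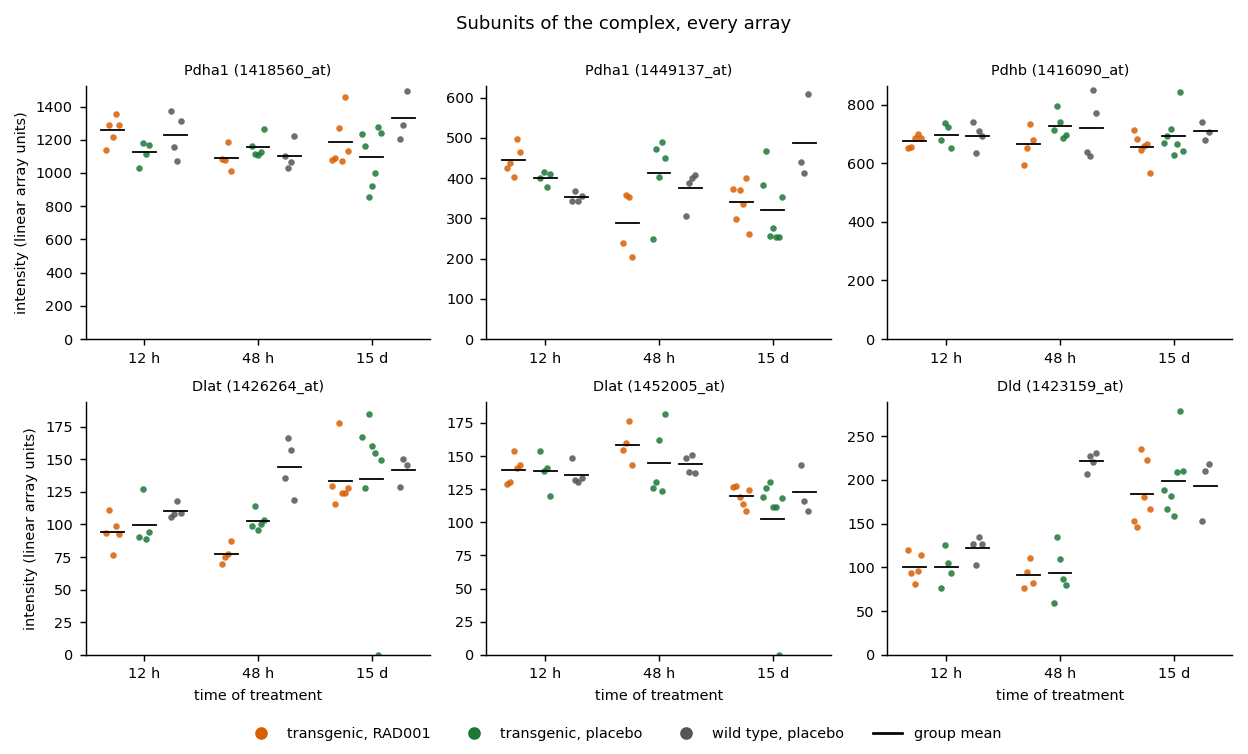
Intensity in linear array units of probe sets for the E1 chains (Pdha1, Pdhb), the E2 core (Dlat) and E3 (Dld) on every array of 12 h, 48 h and 15 d, with RAD001-treated transgenic, placebo-treated transgenic and wild-type arrays from left to right and a line at the group mean. Dld at 48 h has both transgenic groups below every wild-type array, and 1 placebo-treated transgenic array at 15 d lies at 0 for Dlat.

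Dlat, the E2 core, read lower in transgenic prostates at 48 h on 2 of its 3 probe sets. With all arrays in the fit, this was not called for genotype. Probe set 1426264_at read 69.6, 75.2, 77.6 and 87.7 under RAD001 and 98.7, 114, 95.7, 101 and 104 in placebo-treated transgenic prostates, with 136, 166, 157 and 119 in wild-type prostates. The 3 groups did not overlap and stood in that order. The placebo-treated transgenic arrays were also all below the wild-type arrays on 1426265_x_at, which read 121, 128, 114, 142 and 142 against 161, 159, 160 and 164. Neither genotype difference passed (-0.48, adjusted p = 0.36; -0.32, adjusted p = 0.581), and groups with transgenic arrays all lower made up 14.9% of all probe sets at 48 h. All 3 Dlat probe sets were listed at 0 on replicate 9 of the placebo-treated transgenic group at 15 d, and this array entered the common error of the fit. Without the many-zero arrays the genotype difference passed on both probe sets (adjusted p = 0.00321 for 1426264_at and 0.0161 for 1426265_x_at). The RAD001 difference then passed as well, with -0.41 (adjusted p = 0.0486) and -0.38 (adjusted p = 0.0236). The third probe set, 1452005_at, read 155, 160, 177 and 143 at 48 h under RAD001 and 148, 138, 151 and 137 in wild-type prostates, and it differed by 0.14 between RAD001 and placebo (adjusted p = 0.925). Its geometric means at 48 h were 143.1 in placebo-treated transgenic and 143.6 in wild-type prostates, with overlapping ranges. The probe sets of Dlat did not give the same result at 48 h, and which part of the transcript each reads was not analysed here.

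Dld, the shared E3 enzyme, was lower with the transgene at 48 h and varied with time in every group. At 48 h probe set 1423159_at read 59.8, 135, 109, 86.6 and 79.6 in placebo-treated transgenic prostates, against 207, 227, 220 and 231 in wild-type prostates. No transgenic array reached a wild-type one. Dld fell by 1.29 ± 0.18 with the transgene at 48 h (2.44-fold lower, limma, adjusted p = 4.28e-06) and by 0.52 ± 0.11 averaged over the times (adjusted p = 0.000285). The genotype difference depended on time (interaction, adjusted p = 0.00281; 0.011 with the 15 d set as a block). Wild-type prostates themselves had geometric means of 122.2 at 12 h, 221.2 at 48 h and 191.4 at 15 d (adjusted p = 0.00359 for time). Placebo-treated transgenic means were 98.76, 90.52 and 195.7 (adjusted p = 9.3e-07), and RAD001-treated means were 99.79, 90.33 and 181.2 (adjusted p = 2.05e-05). The genotypes therefore differed in when the higher level appeared, with wild type high at 48 h and transgenic prostates high at 15 d. RAD001 and placebo arrays overlapped at each of the 3 times, for example 76.9, 94.8, 111 and 82.5 under RAD001 at 48 h beside the placebo values above.

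**Figure D4:**
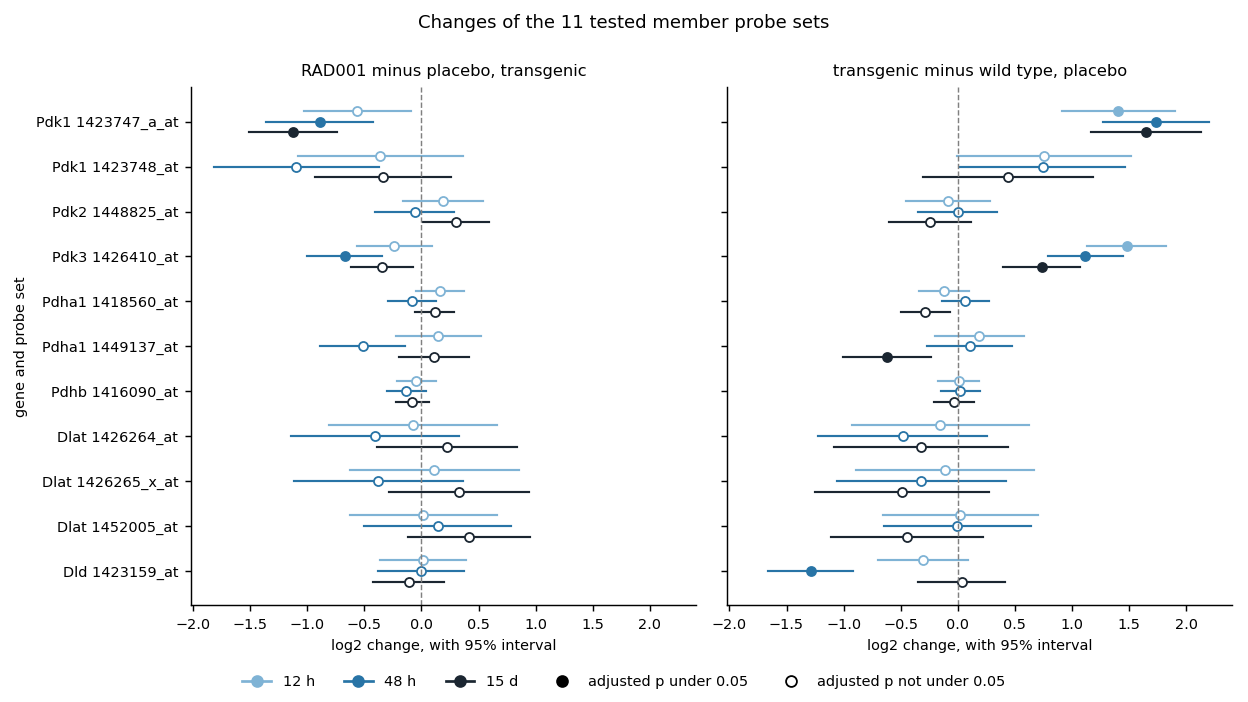
Log2 differences with 95% intervals for the 11 tested member probe sets at 12 h, 48 h and 15 d, for RAD001 minus placebo in transgenic prostates at left and for transgenic minus wild type under placebo at right. Filled circles have an adjusted p under 0.05 over all probe sets, and Pdk1 1423747_a_at is filled at 48 h and 15 d at left and at every time at right.

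RAD001-treated transgenic prostates were also set against placebo-treated wild-type prostates, a comparison that changes genotype and drug together. At 12 h 2 of 11 member probe sets were called, against 17.6% of all probe sets. Pdk1 1423747_a_at was 1.80-fold higher than in wild type (log2 0.84 ± 0.23, limma, adjusted p = 0.00922) and Pdk3 2.36-fold higher (1.24 ± 0.16, adjusted p = 1.32e-06). At 48 h 2 of 11 were called, against 12.5%. Here Pdk1 was 1.79-fold higher (adjusted p = 0.0189) and Dld was 2.45-fold lower (adjusted p = 5.24e-05), and the Pdk3 difference of 0.44 did not pass (adjusted p = 0.0837). Its RAD001 arrays were all above the wild-type arrays at 48 h, as in 10.7% of all probe sets. The Pdk1 calls were lost without wild-type replicate 4 at 12 h (adjusted p = 0.085), and without wild-type replicate 3 (adjusted p = 0.0786) or RAD001 replicate 1 (adjusted p = 0.0535) at 48 h. At 15 d 0 of 11 were called and 3 had an unadjusted p under 0.05, against 1.65% of all probe sets called. The differences there were 0.52 for Pdk1 (adjusted p = 0.222) and 0.39 for Pdk3 (adjusted p = 0.192). All 3 wild-type arrays of 15 d were in set A and 4 of the 6 RAD001 arrays in set B, so these differences mix group with array set. Within set A, with 2 RAD001 arrays against 3 wild-type arrays, Pdk1 differed by -0.025 and the groups overlapped. Pdk3 differed there by 0.68, with the RAD001 arrays all above the wild-type arrays. Dlat 1426264_at at 48 h fell short of a call at -0.89 with no overlap (adjusted p = 0.125), as groups all lower were found for 11.2% of all probe sets, and without the many-zero arrays the adjusted p was 3.22e-05.

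At 6 d and 9 d only transgenic mice were profiled, with 1 placebo array at each time. Pdk1 1423747_a_at read 29.5, 145 and 79.5 under RAD001 at 6 d against 277 on the placebo array. At 9 d it read 123, 170, 36.2 and 147 under RAD001 against 319 under placebo. The lowest RAD001 value at each time came from a many-zero array. Pdk3 read 149, 211 and 192 under RAD001 against 268 under placebo at 6 d, and 190, 174, 205 and 210 against 285 at 9 d. For both kinases each RAD001 array was below the placebo array of its time. How many of all probe sets share this order was not counted. In the fit over both times 0 of the 10 member probe sets that passed the filter were called, 3 had an unadjusted p under 0.05, and 0.803% of all probe sets were called. Pdk1 had a difference of -1.81 ± 0.69 (limma, adjusted p = 0.417) and Pdk3 of -0.56 ± 0.17 (adjusted p = 0.281). Without the many-zero arrays the Pdk1 value was -1.25 (adjusted p = 0.0609). Pdha1 1449137_at read 348, 343 and 336 against 437 at 6 d, and 362, 326, 286 and 308 against 428 at 9 d (-0.39 ± 0.12, adjusted p = 0.307). The brighter Pdha1 probe set, 1418560_at, read 975, 1048 and 873 under RAD001 against 1154 under placebo at 6 d, and 1223, 1074, 1021 and 992 under RAD001 against 1036 under placebo at 9 d, where the placebo array lay within the RAD001 range (-0.11, adjusted p = 0.886). A single placebo array at each time limits what these values can show. The 2 tables were compared only within themselves.

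**Figure D5:**
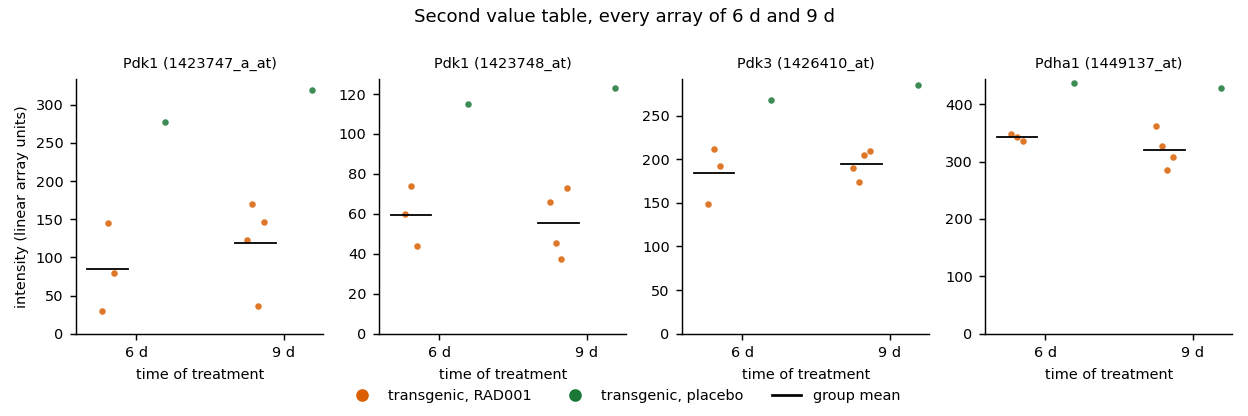
Intensity in linear array units of Pdk1, Pdk3 and Pdha1 probe sets on the 9 arrays of 6 d and 9 d, with RAD001-treated transgenic arrays left of the placebo-treated transgenic array at each time and a line at the RAD001 mean. For Pdk1 1423747_a_at, Pdk3 1426410_at and Pdha1 1449137_at the RAD001 arrays lie below the single placebo array of the same time.

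Ordered by geometric mean, Pdk1 1423747_a_at had the 3 placebo-treated transgenic groups on top (214.8 at 15 d, 164.8 at 48 h, 136.7 at 12 h). The RAD001 groups followed (98.37 at 15 d, 92.65 at 12 h, 88.8 at 48 h) and the wild-type groups came last (68.53, 51.62 and 49.51 at 15 d, 12 h and 48 h). Every pair of neighbours in this order had overlapping ranges. Pdk3 had the same 3 blocks, with placebo-treated transgenic groups at 307.3 to 348.7, RAD001 groups at 207.3 to 295.4 and wild-type groups at 125.1 to 184.7. In the Pdk3 order the ranges failed to overlap between neighbours once, between wild type at 15 d and wild type at 48 h. Over time, 2 of 11 member probe sets were called in placebo-treated transgenic prostates against 47.9% of all probe sets, among them Pdk1 (adjusted p = 0.0306), which had an adjusted p of 0.59 with the 15 d set as a block. In RAD001-treated prostates 3 of 11 were called against 41.4%, and in wild type 1 of 11 against 24.5%. Genotype by time was called for 2 of 11 against 21.3%, and RAD001 by time for 0 of 11 (1 at an unadjusted p under 0.05) against 0.398%.

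As a description over the 42 arrays, which share groups, the log2 values of Pdk1 and Pdk3 had a Pearson correlation of 0.716, and of -0.08 once group means were removed. The 3 genes whose values ran most like those of Pdk1 were Rab11a (r = 0.894, rho = 0.882), Dpp4 (r = 0.863, rho = 0.844) and Slc2a1 on probe set 1426599_a_at (r = 0.86, rho = 0.868). With group means removed their r was 0.641, 0.783 and 0.629. The genes nearest to Pdk3 were Tspan1 (r = 0.888), Tmem98 (r = 0.875) and Tmprss2 (r = 0.865). Their r was 0.595, 0.465 and 0.584 with group means removed. Those nearest to Dld were Zfp644 (r = 0.899), Mterf3 (r = 0.89) and Vbp1 (r = 0.881), with 0.639, 0.705 and 0.553 once group means were removed. For Pdk2 the nearest, Gjb1, had r = 0.83, and 0.619 without the many-zero arrays. Dlat likewise had Amz2 nearest at r = 0.931, and 0.622 without them. Pdha1 1418560_at (Setd3, r = 0.621) and Pdhb (Dera, r = 0.576) had no gene with a correlation above these.

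Genes around the complex were taken from a list of 42, of which 32 had a probe set of their own and 27 passed the filter, each gene counted by its brightest probe set. For genotype averaged over time 3 rose and 5 fell, beside 33.5% of all probe sets called, and the median difference was 0.03, beside -0.04 over all probe sets. Among hypoxia genes, Bnip3, a mitophagy receptor, rose by 1.88 ± 0.11 (limma, adjusted p = 3.56e-15) and Egln3, an oxygen-sensing prolyl hydroxylase, by 0.45 ± 0.08 (adjusted p = 3.73e-05). The probe sets of Slc2a1, a glucose transporter, differed: the brightest, 1426600_at, had 0.24 (adjusted p = 0.55), while 1426599_a_at had 1.26 ± 0.14 (adjusted p = 6.19e-09) and 1434773_a_at 1.0 ± 0.29 (adjusted p = 0.0066). Hif1a, the oxygen-regulated subunit of HIF-1, rose by 0.80 ± 0.08 (adjusted p = 2.19e-09). The sister 2-oxoacid dehydrogenases had 3 of 6 genes lower with the transgene: Bckdha and Dbt, subunits of the branched-chain complex, by 0.40 and 0.47, and its kinase Bckdk by 0.38 (adjusted p = 0.000925, 0.00625 and 0.00292). The other 2 that fell were Gpt, alanine aminotransferase, by 0.37 (adjusted p = 0.00368) and Cpt1a, which admits fatty acids to mitochondria, by 0.31 (adjusted p = 0.00275). Lias, the lipoyl synthase that equips E2, and Mpc1 of the pyruvate carrier were not called. The brightest probe sets of Cs, citrate synthase, and Acly, which cleaves citrate, were not called either, but other probe sets were: Cs 1422577_at with 0.31 ± 0.08 (adjusted p = 0.00175) and Acly 1425326_at with 0.67 ± 0.12 (adjusted p = 4.16e-05).

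Under RAD001 the same list had 0 genes higher and 1 lower at 12 h, 1 and 1 at 48 h, and 1 and 3 at 15 d. Over all probe sets 1.47%, 3.45% and 5.53% were called at these times. Bnip3 fell at each time, by 0.79 at 12 h (adjusted p = 0.0206), 1.41 ± 0.18 at 48 h (adjusted p = 2.47e-05) and 1.83 ± 0.15 at 15 d (adjusted p = 3.34e-10). At 15 d Hif1a fell by 0.63 ± 0.12 (adjusted p = 0.000701) and Egln3 by 0.44 ± 0.11 (adjusted p = 0.0129), while Bckdk rose by 0.66 ± 0.14 (adjusted p = 0.00316). At 48 h Bckdha rose by 0.58 ± 0.16 (adjusted p = 0.0292). Outside the brightest probe sets, Slc2a1 1426599_a_at fell by 0.93 ± 0.23 at 12 h (adjusted p = 0.0337) and by 1.16 ± 0.19 at 15 d (adjusted p = 0.000194), with -0.78 at 48 h (adjusted p = 0.0553). The other Slc2a1 probe sets were not called at 12 h, 48 h or 15 d. The brightest, 1426600_at, had -0.61, -0.80 and 0.11 (adjusted p = 0.706, 0.41 and 0.907). Probe set 1434773_a_at had -0.90, -0.72 and -0.25 (adjusted p = 0.484, 0.509 and 0.785). The probe sets of Slc2a1 thus differed in call, and at 15 d also in sign. At 6 d and 9 d 29 of the list were tested and 3 fell. Bnip3 fell by 2.31 ± 0.15 (adjusted p = 0.00051), Ldha, lactate dehydrogenase A, fell by 1.32 ± 0.09 (adjusted p = 0.00051) and Pkm, pyruvate kinase, fell by 1.07 ± 0.12 (adjusted p = 0.00771). Here 0.803% of all probe sets were called. Neither Ldha nor Pkm was called under RAD001 at the other times: at 15 d the differences were 0.16 ± 0.98 for Ldha (adjusted p = 0.953) and 2.24 ± 0.95 for Pkm (adjusted p = 0.178). Ldha had -0.70 ± 1.18 at 12 h and 0.80 ± 1.18 at 48 h, and Pkm had -0.40 ± 1.14 and -1.13 ± 1.14. With standard errors this large, a missing call does not show that a fall of the size at 6 d and 9 d was absent. The list medians under RAD001 were -0.03, -0.16, 0.03 and -0.09 at 12 h, 48 h, 15 d and 6 d with 9 d, beside 0.02, 0.00, 0.02 and -0.01 over all probe sets.

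Markers of the tissue moved with the groups too. Of 8 luminal epithelial markers 6 had a probe set, none of them under the floor of 16 throughout any group, and their summed level at 48 h was 21440 to 25750 under RAD001, 24230 to 26370 in placebo-treated transgenic and 19330 to 20950 in wild-type prostates. With the transgene 4 of the 6 rose, among them the keratin gene Krt8 by 0.91 ± 0.09 and the cadherin gene Cdh1 by 0.82 ± 0.09. The other 2, Epcam (0.46, adjusted p = 0.472) and Pbsn (-0.16, adjusted p = 0.45), were not called. Under RAD001 Krt8 alone of the 6 was called, lower at 12 h (adjusted p = 0.025) and 48 h (adjusted p = 0.0102). The median of the 6 differences was 0.006 at 12 h and -0.084 at 48 h. Of 5 smooth muscle markers 4 fell with the transgene, among them Cnn1 by 1.35 ± 0.17, and under RAD001 1 rose at 12 h, 1 at 48 h and 3 at 15 d. Their sum at 15 d was 5417 to 7184 under RAD001, 3244 to 5203 in placebo-treated transgenic and 7000 to 8429 in wild-type prostates. Of 4 fibroblast markers 3 fell with the transgene, with a sum at 15 d of 3073 to 5646 under RAD001, 2152 to 4205 under placebo and 4662 to 6066 in wild type. The fourth, Col1a1, was higher with the transgene at 48 h by 3.13 ± 0.71 (adjusted p = 0.00134) and was not called when averaged over time (0.81, adjusted p = 0.146). At 48 h the others fell, Col1a2 by 1.12 ± 0.23, Col3a1 by 1.14 ± 0.31 and Dcn by 0.65 ± 0.18. The fibroblast sum at 48 h was 3178 to 4344 in placebo-treated transgenic and 5711 to 7661 in wild-type prostates, so Col1a1 stood apart from its list at that time. The Col1a1 genotype difference was 0.24 ± 0.75 at 12 h (adjusted p = 0.873) and -0.95 ± 0.73 at 15 d (adjusted p = 0.36). Its standard error at 48 h, 0.71, was larger than those of the others, at 0.18 to 0.31. Dcn, a fibroblast proteoglycan gene, rose under RAD001 at 48 h (0.72, adjusted p = 0.0152) and 15 d (0.70, adjusted p = 0.00281), and at 6 d with 9 d (0.58, adjusted p = 0.0309). Both basal epithelial markers tested, Krt5 and Trp63, fell with the transgene. Under RAD001 both rose at 48 h (0.88, adjusted p = 0.00125, and 0.61, adjusted p = 0.00643), and Trp63 rose at 15 d (0.47, adjusted p = 0.00684). With the transgene 1 of 2 endothelial markers rose, 1 of 2 skeletal muscle markers fell, and 0 of 2 adipocyte and 0 of 2 leukocyte markers were called. No brown adipocyte, red cell or seminal vesicle marker passed the filter on dim signals. The skeletal muscle marker Myh4 was under the floor of 16 on all arrays of every group at 12 h, 48 h and 15 d. The samples were pieces of whole tissue, so fewer cells of a type and less RNA per cell cannot be told apart, and the part of these markers in the differences of Pdk1, Pdk3 and Dld was not tested.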

How the data were processed

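Biotin-labelled cRNA from ventral prostate was hybridised to Affymetrix mouse arrays of 2 platforms, with the 6 d and 9 d arrays on a different platform from the rest. The intensity values are those deposited by the authors, on a linear scale and in 2 tables that were analysed apart; the labels do not say how they were summarised and scaled. From these intensities, log2 was taken after setting a floor of 16, probe sets under the 40th percentile of mean log2 were left out (13574 and 13576 remained), and group means were fitted over all arrays of a table with limma 3.58.1 in R 4.3.3 (lmFit, eBayes with trend). P-values were adjusted by Benjamini-Hochberg over all probe sets tested, with a threshold of 0.05, and each probe set was tested apart. The script was tested on simulated data. Set aside were 3 out-of-range values, with their 2 probe sets, in the larger table, and 28 values below 0 that went to the floor in the smaller one. Signal over background is not recorded, so the number of arrays limits the precision. Genes were named by rule: the 8 members, listed neighbours and markers, and the 3 probe sets most like each member. The members and lists were chosen with earlier results of these data known. Neighbour probe sets other than the brightest were named after their values were seen.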

Additional observations from a re-analysis of the deposited data

Results flagged for a closer look

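Several single arrays lay far from the rest of their group, by a test of the gap at either end that flags about 1 group in 20 by chance: 9 of 117 groups were flagged where chance gives 5.85. Replicate 9 of the placebo-treated transgenic group at 15 d, one of the arrays with over 500 zeros, was listed at 0 for Pdk1 1423748_at (next lowest 106), Dlat 1426264_at (128), Dlat 1426265_x_at (147) and Dlat 1452005_at (111). Replicate 3 of the RAD001 group at 15 d was high for Dlat 1426264_at at 178 (next 129) and Dlat 1426265_x_at at 186 (next 153). RAD001 replicate 2 at 48 h read 117 for Dlat 1426265_x_at (next 96). In the placebo-treated transgenic group at 12 h, replicate 4 read 277 for Pdk2 (next 246) and replicate 2 read 127 for Dlat 1426264_at (next 93.9).

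The transgene's effect differed between times, by the interaction test, for Dld (adjusted p = 0.00281) and Pdha1 1449137_at (adjusted p = 0.0424). The Dld difference was -1.29 at 48 h, where wild type was high and both transgenic groups were low. The Pdha1 interaction was called in 5 of 12 alternative fits and was lost, for one, with the 15 d array set as a block (adjusted p = 0.279).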

How the results depend on the processing

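Of 4218 member values recomputed, 4054 stayed on their side of the threshold, 56 lost a call, 108 gained one and 0 called values turned sign; 153 changed sign with no call in either fit. Settings for the many-zero arrays and the 15 d array sets were chosen after seeing the data. Counts of called member probe sets that moved by more than 1.5 times were as follows; smaller moves, such as 3 in place of 2 for genotype at 12 h under 5 settings, are left out. A filter at the 60th percentile, which leaves 5 members to test, gave 1 for genotype averaged, at 12 h and at 48 h, 1 for RAD001 at 48 h, 0 at 15 d, 1 and 0 for RAD001 against wild type at 12 h and 48 h, 1 for genotype by time, and 0 for time in wild type and in transgenic placebo. A floor of 64 gave 5 for genotype at 48 h, 2 for RAD001 at 15 d, 4 for time in transgenic placebo and 6 in transgenic RAD001. Array weights gave 6 and 5 for genotype at 48 h and 15 d, 4 for RAD001 at 48 h, 6 and 2 for RAD001 against wild type at 48 h and 15 d, and 2, 5 and 5 for time in wild type, transgenic placebo and transgenic RAD001. Fitting the compared groups only gave 6 for genotype at 48 h, 4 for time in wild type and 5 in transgenic RAD001. Without the many-zero arrays the counts were 6 for genotype at 48 h, 5 and 2 for RAD001 at 48 h and 15 d, 4 for RAD001 against wild type at 48 h, 3 for time in wild type and 6 in transgenic RAD001. The 15 d set as a block gave 1 for genotype by time and 1 for time in transgenic placebo; leaving out set B gave 0 for RAD001 at 15 d and 1 for genotype by time. Genotype by time also gave 1 with no filter on dim probe sets, with 1 probe set per gene, and with the 15 d arrays split by the sign of the component.

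The replicate block, with replicate numbers as pairs, gave 6 for genotype at 48 h, 4 and 2 for RAD001 at 48 h and 15 d, 4 for RAD001 against wild type at 48 h, 1 for genotype by time, and 4 and 6 for time in transgenic placebo and RAD001. Same-numbered arrays did not deviate together (median r -0.009 over 125 pairs, 13 over 0.1, beside 0.001 over 653 others), so the numbers were not used as pairs.

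Leaving out 1 array at a time gave 3 to 4 for genotype averaged, 2 at 12 h, 3 at 48 h and 2 to 5 at 15 d. For RAD001 it gave 0 at 12 h, 1 to 3 at 48 h, 1 to 2 at 15 d and 0 at 6 d with 9 d. Against wild type it gave 1 to 2, 1 to 2 and 0 at 12 h, 48 h and 15 d. The ranges were 1 to 3 for genotype by time, 0 for RAD001 by time, and 1 to 2, 1 to 4 and 2 to 3 for time in wild type, transgenic placebo and transgenic RAD001.

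Counts over all probe sets moved too. Over the alternatives, genotype averaged had 3222 to 5677 calls (4551 as reported) and genotype at 12 h 1987 to 4202 (2847), both within 1.5 times, while genotype at 15 d had 365 to 3341 calls (2856 as reported), RAD001 87 to 1208 at 12 h (199), 306 to 978 at 48 h (468), 61 to 1048 at 15 d (750) and 3 to 232 at 6 d with 9 d (109), and RAD001 against wild type 1638 to 4050 at 12 h (2383), 1284 to 2607 at 48 h (1700) and 3 to 2387 at 15 d (224). Genotype at 48 h had 2564 to 5313 (3471), genotype by time 1198 to 4552 (2893), RAD001 by time 14 to 206 (54), and time 2349 to 5213 in wild type (3327), 2397 to 8291 in transgenic placebo (6498) and 2956 to 7609 in transgenic RAD001 (5622). Causes were not tested, except where fewer probe sets or arrays entered. Pdk4 and Pdhb 1448214_at were under the filter on dim signals, so they were not tested.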
